A study of Mus musculus with 22 samples.

Results

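The iron handling genes of the kidney are described here as 9 genes taken by symbol, with no threshold on a measured value. They are Tfrc, Trf and Slc11a2 for uptake, Fth1 and Ftl1 for storage, Slc40a1, Heph and Cp for export and oxidation, and Ireb2 for sensing. All 9 had a row among the 32858 genes of the count table, and all 9 passed the filter on low counts that left 17131 genes for testing. RNA-Seq was performed on kidneys of 22 male C57Bl6/J mice of 8 to 10 weeks, with 1 library for each mouse. Vehicle was given to 5 mice, KW6002 to 6, cisplatin to 5, and cisplatin with KW6002 to 6. Cisplatin, a platinum drug that injures the tubules of the kidney, was injected i.p. at 3 mg/kg on 6 consecutive days from day 0, and kidneys were taken 72 hours after the last injection. KW6002 (istradefylline), an adenosine receptor antagonist, was injected daily at 3 mg/kg from day -5 to day 7, and its carrier of DMSO, cremophor, and saline was the vehicle.

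Cells take up iron mostly as transferrin (Trf) bound to the transferrin receptor (Tfrc), and the proton-coupled transporter DMT1 (Slc11a2) carries the ferrous iron across membranes. Iron not in use is held in ferritin, a shell of heavy (Fth1) and light (Ftl1) chains, and ferroportin (Slc40a1) exports it, aided by the ferroxidases hephaestin (Heph) and ceruloplasmin (Cp). Iron regulatory proteins, one of them IRP2 (Ireb2), bind hairpins called iron responsive elements in several of these mRNAs when iron is scarce. Binding in a 5′ UTR blocks translation, and binding in a 3′ UTR protects the mRNA from decay. In the kidney, the proximal tubule reabsorbs filtered iron together with the proteins that carry it.

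The hairpins are shown because they are a known means of control of several of the 9 genes. The core of the element, a bulged C, 5 bases, the loop CAGTGN, and 5 bases able to pair with the first 5 (G-U pairs allowed), was searched on the transcript strand in the UTRs of 21901 coding genes of GENCODE M21 on GRCm38 (mm10). It was found in 4 of the 9 genes and in 0.731% of all genes searched, with 0.142% holding it in a 5′ UTR and 0.589% in a 3′ UTR. Tfrc, on the forward strand of chromosome 16, held 4 copies in its 3′ UTR, at chr16:32631219-32631247, chr16:32631598-32631626, chr16:32631663-32631691, and chr16:32631710-32631738. Single copies lay in the 5′ UTR of Slc40a1 (chr1:45925465-45925493, reverse strand), Fth1 (chr19:9982732-9982760, forward strand), and Ftl1 (chr7:45459779-45459807, reverse strand). No match was found in the annotated UTRs of Slc11a2, Trf, Cp, Heph, or Ireb2, which says only that these letters are absent there. A form of Slc11a2 carries an element, as given below, so this search does not find every element. Each element is printed 5′ to 3′ over 29 bases, with the bulged C and the loop in capitals.
Tfrc element 1: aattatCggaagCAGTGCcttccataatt
Tfrc element 2: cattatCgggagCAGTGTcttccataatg
Tfrc element 3: ctatatCggagaCAGTGAtctccatatgt
Tfrc element 4: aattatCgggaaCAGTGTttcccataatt
Slc40a1: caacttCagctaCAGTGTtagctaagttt
Fth1: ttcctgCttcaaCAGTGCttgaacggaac
Ftl1: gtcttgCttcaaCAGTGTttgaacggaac

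Levels are given as CPM, read counts scaled to a common library total after TMM normalization, and as CPM per kb of exon where genes are compared with each other. Exon length counts each base of all annotated exons of a gene once, so levels per kb depend on the annotation. In vehicle kidneys, Fth1 reached 763.5 ± 100.1 CPM per kb (SD, n = 5), a level above 99.8% of the 17122 genes ranked, and Ftl1 reached 130.8 ± 20.2 CPM per kb. Slc11a2 (22.1 ± 4.74), Ireb2 (17.1 ± 1.07), and Tfrc (13.9 ± 1.63) followed on the same scale. Slc40a1 (9.07 ± 2.11) and Cp (8.36 ± 1.92) were next, and their difference was smaller than either spread. Heph (2.95 ± 0.139) and Trf (1.58 ± 1.28) were lowest. The 2 least certain counts are those of Ftl1 and Trf: 58.4% of the 50-base words of Ftl1 also occur in Ftl1-ps1 and other copies, and 59.4% of those of Trf occur in other genes, among them Gm20425, which is annotated over it on the same strand. Reads with several alignments, or lying over several genes, are not counted in the mode the authors used, so the levels of these genes may be understated. Whether the annotation used for counting held Gm20425 is not given in the sources used here. The other 7 genes shared at most 4.27% of such words.

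Totals ran from 26471762 to 40510754 counts per library. By their labels, 6 mice are numbered in the 300s, of which 3 received vehicle and 3 received KW6002. The numbers of the 16 others, all 11 mice given cisplatin among them, lie in the 500s. What the numbers mark is not stated, and within the vehicle and KW6002 groups several iron genes differed between the 2 series. For some results, values with the series as a covariate, within the 500s, or both are given as well. Kidney RNA was measured in bulk, so fewer cells of a type and less RNA per cell cannot be told apart. Proximal tubule markers were present in every library, with summed levels of 15400 to 16300 CPM with vehicle, 14600 to 16100 with KW6002, 2050 to 3510 with cisplatin, and 6720 to 10000 with cisplatin plus KW6002. All 7 of these markers were lower with cisplatin than with vehicle, and 6 of 7 were higher with cisplatin plus KW6002 than with cisplatin. The part of this shift in the results below was not tested.

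Cisplatin was associated with higher ceruloplasmin, ferritin heavy chain, transferrin, and ferroportin mRNA, and with lower Slc11a2 and Ireb2 mRNA, compared with vehicle. By edgeR's quasi-likelihood test with Benjamini-Hochberg adjustment over all 17131 genes, at an adjusted p below 0.05, 4 of the 9 genes were higher and 2 lower. Of all genes tested, 70.5% passed in this comparison, 34.6% higher and 35.9% lower, so 6 of 9 is near the background. The median log2 fold change was 0.05 over the 9 genes and -0.01 over all genes tested. The median over the 9 was 0.28 with the label series as a covariate, 0.20 within the 500s, and 0.26 with library size only, where 5 of the 9 were higher and 1 lower. Under the thresholds of the study (adjusted p below 0.01 and log2 fold change beyond 1), Fth1, Trf, and Cp passed, 3 of 9 beside 24.1% of all genes. Vehicle and cisplatin kidneys did not overlap in 4 of the 9 genes, beside 55.3% of all genes. Adding KW6002 to cisplatin lowered 4 of the 9 genes and raised 2, where 27.2% of all genes were lower and 28.6% higher (55.8% together). The median over the 9 was then -0.10, beside 0.01 over all genes, and under the study thresholds Trf passed, 1 of 9 beside 10.3% of all genes. These groups did not overlap in 4 of the 9 genes, beside 37.8% of all genes. Kidneys given both drugs differed from vehicle kidneys in 5 of the 9 genes, 3 higher and 2 lower, beside 59.7% of all genes (29.8% higher and 29.9% lower). Under the study thresholds Cp passed, 1 of 9 beside 13.4%, and groups did not overlap in 3 of 9, beside 37.5%. Scaling by library size only, without TMM, moved the median of all genes to 0.20 for cisplatin against vehicle, with 8157 genes higher and 4244 lower (5930 and 6155 with TMM). It moved that median to 0.16 for cisplatin plus KW6002 against vehicle, with 7394 higher and 3525 lower (5108 and 5114 with TMM). The comparisons share the cisplatin or vehicle samples, so their values are placed side by side only.

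**Figure D1:**
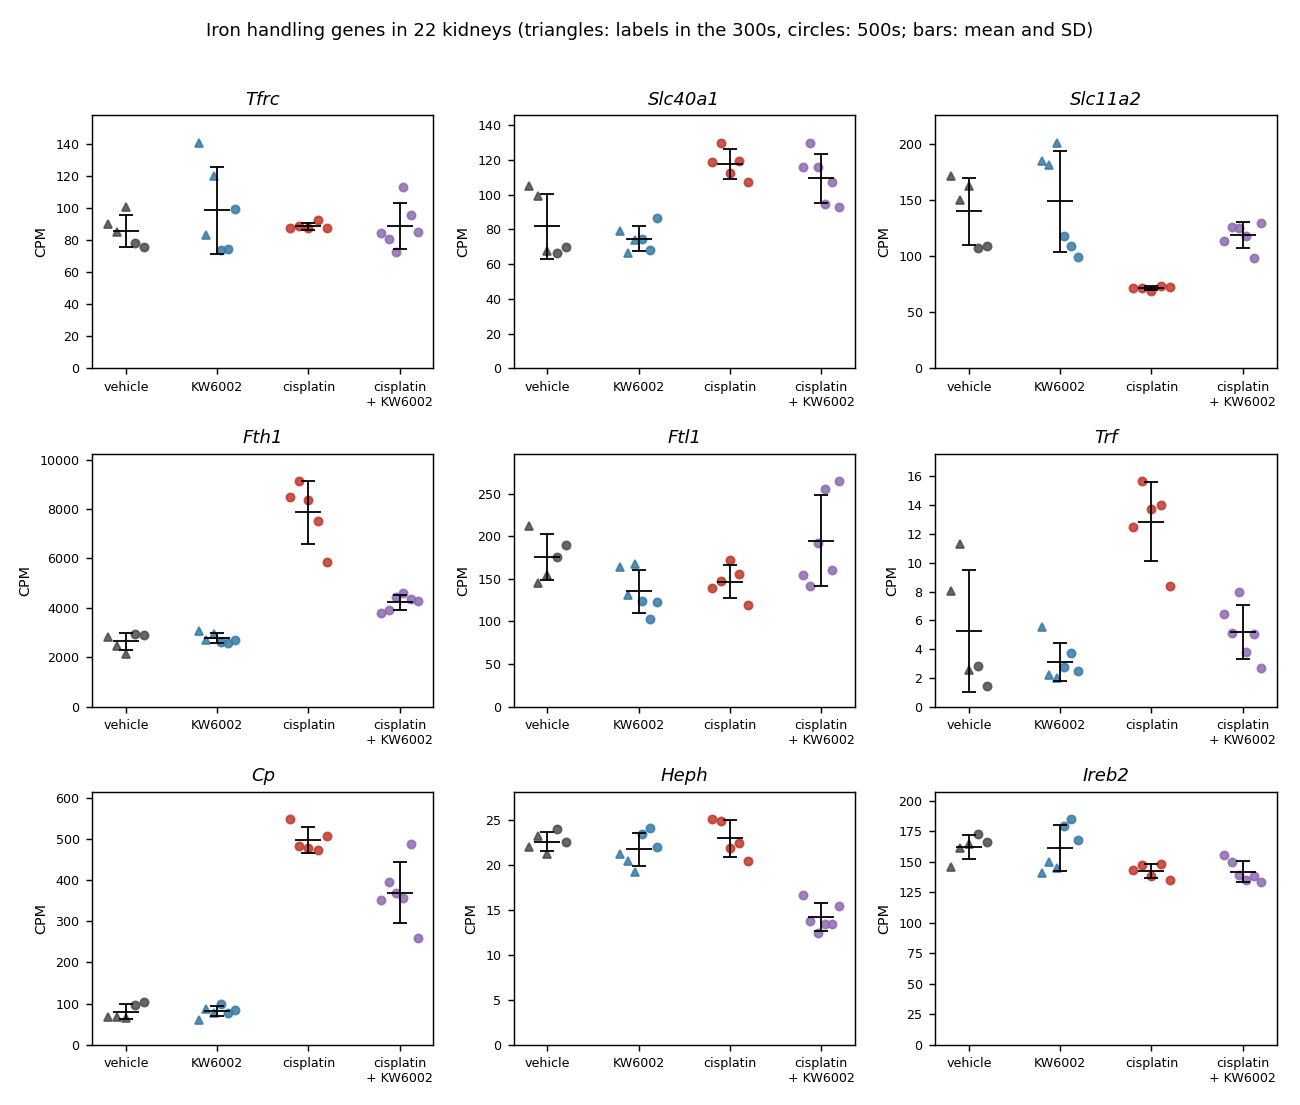
CPM of each of the 9 iron handling genes (y axis, starting at 0) in each of the 22 kidneys by treatment (x axis). Triangles and circles are mice with labels in the 300s and 500s, and bars give mean and SD. Fth1 and Cp with cisplatin stand clear of vehicle, Slc11a2 with cisplatin lies at 69.3 to 73.5 CPM, and Heph is lowest with cisplatin plus KW6002.

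**Figure D2:**
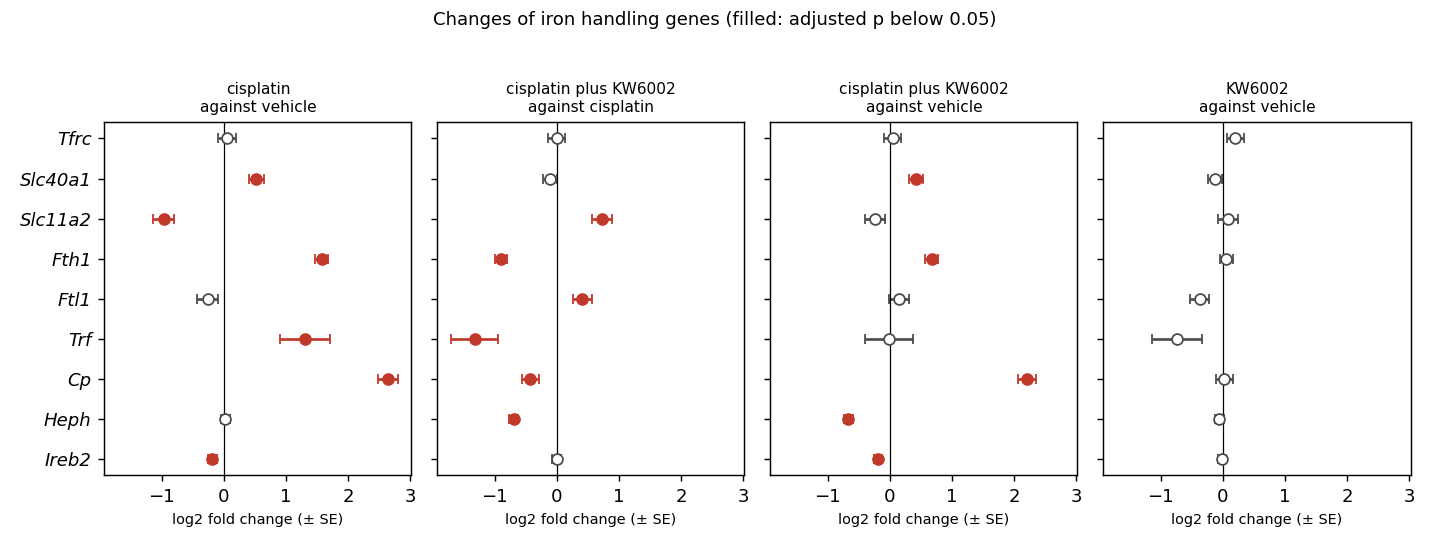
Log2 fold changes (x axis, with SE) of the 9 genes (y axis) in 4 comparisons, filled where the adjusted p is below 0.05. The count of filled points is 6, 6, 5, and 0 from left to right.

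Tfrc, the receptor that brings transferrin-bound iron into the cell (chr16:32608920-32632794), passed the test in no comparison. Its CPM was 90.4, 85.1, 100.5, 78.0, and 75.6 in the 5 vehicle kidneys and 87.6, 88.6, 87.5, 92.5, and 87.5 in the 5 cisplatin kidneys. KW6002 kidneys ran from 73.7 through a median of 91.5 to 140.9 CPM, and kidneys given both drugs from 72.6 through 84.9 to 113.3. All 4 groups overlapped. The cisplatin group was the tightest, with an SD of 2.14 CPM against 10.1 with vehicle and 27.1 with KW6002. The log2 fold change was 0.05 (SE 0.14, adjusted p = 0.786) for cisplatin against vehicle and 0.00 (SE 0.14, adjusted p = 1.0) for cisplatin plus KW6002 against cisplatin. With the label series as a covariate the first value became 0.28 (adjusted p = 0.0784). Dividing cells and red cell precursors carry much of this receptor, and markers of dividing cells and red cells moved between these groups. Summed markers of dividing cells ran from 6.02 to 15.7 CPM with vehicle and from 23.8 to 35.5 with cisplatin, with 4 of 4 higher. Summed markers of red cells ran from 138 to 461 CPM with vehicle and from 4.61 to 16.6 with cisplatin, with 6 of 6 lower and Alas2, Hba-a1, Hba-a2, and Hbb-bt at 0 in some libraries. Most of the red cell sum with cisplatin was Slc4a1, which averaged 62.8 CPM with vehicle and 8.39 with cisplatin. With KW6002 added to cisplatin, Slc4a1 was 4.35-fold higher (adjusted p = 1.15e-07), the only 1 of the 6 to pass there. The sum therefore does not follow the globin genes in that comparison. Hbb-bs, the highest of the 6 with vehicle at 116.1 CPM, averaged 0.079 with cisplatin. The part of either cell type in the Tfrc values was not tested. Over the 22 libraries the genes with the most similar log2 CPM were Tmem176b (Pearson r = 0.669, and 0.659 after group means were removed) and E2f2 (0.659 and 0.692), as a description of values that share library and depth.

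Trf, the plasma iron carrier made mainly by liver (chr9:103204001-103230444), had the lowest level per kb of the 9 in vehicle kidneys. It reached 8.06, 11.3, 2.55, 2.82, and 1.43 CPM with vehicle and 12.5, 15.7, 13.7, 13.99, and 8.38 CPM with cisplatin. Kidneys given both drugs ran from 2.66 through a median of 5.06 to 7.96 CPM, below every cisplatin kidney, and KW6002 kidneys from 1.97 through 2.62 to 5.50. Vehicle replicate 2 lay inside the cisplatin range, so those groups overlapped. The log2 fold change was 1.31 (SE 0.40, adjusted p = 0.00589) for cisplatin against vehicle and -1.32 (SE 0.38, adjusted p = 0.00481) for cisplatin plus KW6002 against cisplatin. Cisplatin plus KW6002 differed from vehicle by -0.01 (SE 0.39, adjusted p = 0.98). Within the 500s the first value was 2.60 (adjusted p = 1.11e-05) and the third became 1.28 (adjusted p = 0.00817). The difference between the KW6002 effects was -0.58 (SE 0.55, adjusted p = 0.417) over all mice and -1.82 (adjusted p = 0.00681) within the 500s. The values within the 500s rest on 2 vehicle mice, with 80 and 44 counts of Trf.

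In the comparison of cisplatin plus KW6002 with cisplatin, Trf moved with markers of fat, whose 6 summed markers ran from 154 to 1380 CPM with vehicle, 65.2 to 595 with KW6002, 413 to 824 with cisplatin, and 40.8 to 374 with cisplatin plus KW6002. Of these markers, 5 of 6 were lower with cisplatin plus KW6002 than with cisplatin, whereas 0 of 6 passed for cisplatin against vehicle (median -0.23), where Trf rose. With the fat markers as a covariate, the Trf value for cisplatin against vehicle was 1.40 (adjusted p = 0.000619), and that for cisplatin plus KW6002 against cisplatin was -0.36 and no longer passed (adjusted p = 0.524). The fat sums did not overlap between the groups of the latter comparison, so this covariate cannot separate fat from treatment there. The 3 liver markers summed to 12.0 to 14.4 CPM with vehicle and 2.24 to 4.40 with cisplatin, with 2 of the 2 tested lower, where Trf rose. The third, Ahsg, was not tested and averaged 0.0065 CPM with vehicle and 0.14 with cisplatin. The part of either tissue in the Trf values was not tested. The genes most like Trf over the 22 libraries were Ctsb, a lysosomal protease (r = 0.933, and 0.860 after group means were removed), and Pnpla2, a lipase of fat stores (0.915 and 0.838).

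Slc11a2, the ferrous iron transporter DMT1 (chr15:100387898-100425072), was the 1 uptake gene that was lower with cisplatin and higher again with KW6002. Vehicle kidneys held 171.6, 150.0, 162.5, 107.4, and 109.1 CPM, and cisplatin kidneys 72.0, 71.7, 69.3, 73.5, and 72.3 CPM. Cisplatin plus KW6002 kidneys ran from 98.7 through a median of 121.8 to 129.7 CPM, and KW6002 kidneys from 99.6 through 149.6 to 201.4. Every cisplatin kidney lay below every kidney of the other groups. The log2 fold change was -0.97 (SE 0.17, adjusted p = 2.34e-05), a 1.95-fold lower level, for cisplatin against vehicle. It was 0.73 (SE 0.16, adjusted p = 0.000599), 1.65-fold higher, for cisplatin plus KW6002 against cisplatin. The effect of KW6002 was larger with cisplatin than without it, by 0.64 (SE 0.23, adjusted p = 0.0268). Without vehicle replicate 1 that difference was 0.55 (adjusted p = 0.0558), without vehicle replicate 3 it was 0.58 (adjusted p = 0.0529), and with library size only it was 0.56 (adjusted p = 0.0517).

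The vehicle and KW6002 groups were split by the number series of the labels. Slc11a2 averaged 161.4 CPM in the 3 vehicle mice of the 300s and 108.2 in the 2 of the 500s, and 189.2 and 108.7 CPM in the 3 and 3 KW6002 mice. Within the 500s, cisplatin against vehicle was -0.60 (adjusted p = 7.89e-06), with the series as a covariate it was -0.52 (adjusted p = 3.06e-06), and within the 500s cisplatin plus KW6002 against cisplatin was 0.73 (adjusted p = 4.75e-08). Cisplatin plus KW6002 against vehicle was -0.24 (SE 0.16, adjusted p = 0.201) over all mice, but 0.21 (adjusted p = 0.0229) with the series as a covariate and 0.13 (adjusted p = 0.211) within the 500s. A gain of Slc11a2 over vehicle under both drugs therefore depends on how the series is handled. The genes with the nearest pattern were Pde9a (r = 0.955, and 0.880 after group means were removed) and Plekhm2 (0.948 and 0.927). Slc11a2 is made with and without an iron responsive element, and counts per gene do not separate these forms.

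**Figure D3:**
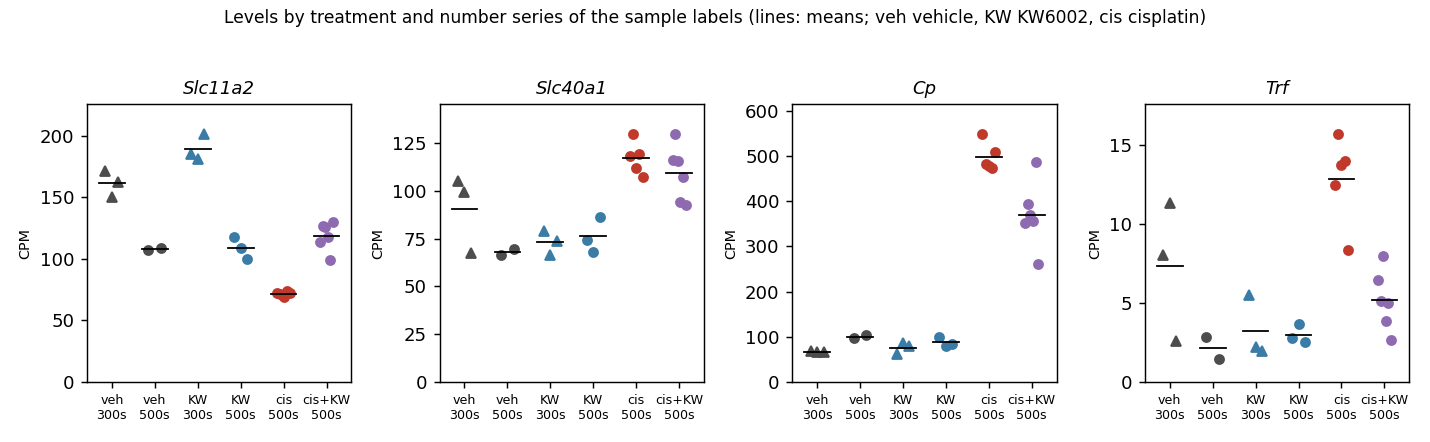
CPM (y axis, starting at 0) of Slc11a2, Slc40a1, Cp, and Trf by treatment and number series of the labels (x axis), with 1 point for each mouse and lines at the means. In vehicle mice the 300s stand above the 500s for Slc11a2 (161.4 against 108.2 CPM) and below for Cp (66.7 against 99.9 CPM).

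Fth1, the ferritin heavy chain, which oxidizes iron for storage (chr19:9980598-9985098), rose with cisplatin, and less so with KW6002 added. Vehicle kidneys held 2826, 2456, 2128, 2922, and 2911 CPM, and cisplatin kidneys 8494, 9143, 8371, 7508, and 5854 CPM. Kidneys given both drugs ran from 3777 through a median of 4303 to 4580 CPM, and KW6002 kidneys from 2559 through 2692 to 3061. Kidneys given both drugs lay between the vehicle and the cisplatin kidneys without overlap with either. The rise with cisplatin was 1.57 on the log2 scale (SE 0.11, adjusted p = 1.02e-11), or 2.97-fold. With KW6002 added, the level was 1.86-fold lower than with cisplatin (log2 fold change -0.90, SE 0.10, adjusted p = 1.09e-07) and 1.59-fold higher than with vehicle (0.67, SE 0.10, adjusted p = 6.06e-06). The effect of KW6002 differed with and without cisplatin by -0.96 (SE 0.14, adjusted p = 1.31e-05). Within the 500s the rise with cisplatin was 1.43 (adjusted p = 1.3e-07). The counts per library ran from 61253 to 364029, and no ferritin pseudogene row exceeded 17. A gene with a near pattern was 1110008P14Rik (r = 0.982, and 0.746 after group means were removed).

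Ftl1, the ferritin light chain, which helps form the iron core (chr7:45457944-45459884), did not pass the test for cisplatin against vehicle, where the heavy chain rose. It reached 212.0, 145.0, 154.0, 176.1, and 189.5 CPM with vehicle and 138.7, 146.8, 172.0, 155.2, and 119.3 CPM with cisplatin. Cisplatin plus KW6002 kidneys ran from 141.1 through a median of 176.5 to 265.0 CPM, and KW6002 kidneys from 102.4 through 127.7 to 167.9, and all groups overlapped. Cisplatin against vehicle gave -0.26 on the log2 scale (SE 0.17, adjusted p = 0.164). Cisplatin plus KW6002 was higher than cisplatin by 0.41 (SE 0.16, adjusted p = 0.0316). This call was lost without cisplatin replicate 1, 2, or 5 or without replicate 4 or 6 of the cisplatin plus KW6002 group (adjusted p from 0.0523 to 0.104), and with library size only (0.35, adjusted p = 0.0632). The effect of KW6002 was more positive with cisplatin than without it by 0.79 (SE 0.22, adjusted p = 0.00702). Per kb and on the log2 scale, Fth1 exceeded Ftl1 by 2.55 ± 0.154 (SD, n = 5) in vehicle kidneys, 2.99 ± 0.178 (n = 6) in KW6002 kidneys, 4.37 ± 0.188 (n = 5) in cisplatin kidneys, and 3.11 ± 0.323 (n = 6) in kidneys given both drugs. The size of this gap is uncertain because reads shared with Ftl1-ps1 and other copies were not counted. It also depends on the exon lengths used, 3469 bases for Fth1 and 1340 for Ftl1, which take in all annotated exons. After group means were removed, Fth1 and Ftl1 varied together (r = 0.61 over 22 libraries). U2af1 (r = 0.788, and 0.730 after group means were removed) and Pop7 (0.762 and 0.666) were most like Ftl1.

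The log2 ratio of Tfrc to Fth1 per kb, uptake against storage, was -5.78 ± 0.349 (SD, n = 5) in vehicle kidneys and -5.68 ± 0.284 (n = 6) in KW6002 kidneys. It was -7.29 ± 0.254 (n = 5) in cisplatin kidneys and -6.42 ± 0.204 (n = 6) in kidneys given both drugs. As Tfrc itself passed no test, these values follow Fth1.

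Slc40a1, the iron exporter ferroportin (chr1:45908068-45926523), was higher with cisplatin whether or not KW6002 was given. It reached 105.1, 99.4, 67.5, 66.5, and 69.7 CPM with vehicle and 118.5, 129.9, 112.3, 119.4, and 107.2 CPM with cisplatin. Kidneys given both drugs ran from 92.9 through a median of 111.5 to 129.9 CPM, and KW6002 kidneys from 66.4 through 74.2 to 86.5. Every cisplatin kidney exceeded every vehicle kidney. The log2 fold change was 0.53 (SE 0.12, adjusted p = 0.000462), or 1.44-fold, for cisplatin against vehicle and 0.42 (SE 0.11, adjusted p = 0.00313) for cisplatin plus KW6002 against vehicle. Cisplatin plus KW6002 against cisplatin was -0.10 (SE 0.11, adjusted p = 0.456). Within the 500s the first value was 0.78 (adjusted p = 2.26e-05) and the second 0.68 (adjusted p = 0.000142). Macrophages, which recycle iron from red cells and carry much ferroportin, had summed markers of 166 to 323 CPM with vehicle, 211 to 293 with cisplatin, and 121 to 180 with cisplatin plus KW6002. Of the 8 macrophage markers, 1 was higher and 2 lower with cisplatin than with vehicle, and no marker was at 0 in a library. Slc40a1 and Trf varied together after group means were removed (r = 0.754 over 22 libraries), the highest value among the 36 pairs of the 9 genes. Vehicle replicates 1 and 2 were the highest of the vehicle group in both genes. They were also highest in summed markers of fat (749 and 1380 CPM) and of macrophages (323 and 314 CPM). The part of these tissues in this r was not tested. With the fat markers as a covariate the Slc40a1 value for cisplatin against vehicle was 0.52 (adjusted p = 0.000364). Mapkapk3 (r = 0.925, and 0.779 after group means were removed) and Lgi2 (0.918 and 0.743) had the nearest pattern.

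Heph, a membrane ferroxidase that acts with ferroportin (chrX:96455359-96574485), was lower in kidneys given both drugs than in vehicle or cisplatin kidneys, which did not differ past the threshold. It reached 21.99, 23.2, 21.3, 24.0, and 22.6 CPM with vehicle and 25.2, 24.9, 21.9, 22.5, and 20.5 CPM with cisplatin. Cisplatin plus KW6002 kidneys ran from 12.5 through a median of 13.7 to 16.7 CPM, and KW6002 kidneys from 19.3 through 21.6 to 24.2. All 6 kidneys given both drugs lay below all 16 others. Cisplatin plus KW6002 against cisplatin was -0.69 (SE 0.07, adjusted p = 6.22e-08), and against vehicle -0.67 (SE 0.07, adjusted p = 9.14e-08). Cisplatin against vehicle was 0.02 (SE 0.08, adjusted p = 0.791), and 0.24 (adjusted p = 0.00768) with library size only. KW6002 against vehicle was -0.06 (SE 0.07, adjusted p = 0.814), and the KW6002 effects with and without cisplatin differed by -0.64 (SE 0.11, adjusted p = 4.52e-05). Fzd1 (r = 0.939, and 0.595 after group means were removed) and Fam208a (0.937 and 0.521) were most like it. Heph shares exon positions with Hsf3 on the other strand, as do Cp with Hps3, Slc11a2 with Gm5475, and Ftl1 with Gm10252. Whether strand was used in counting is not given in the sources used here.

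Cp, the ferroxidase ceruloplasmin, also a known acute phase protein (chr3:19957054-20009145), rose with cisplatin and had the largest log2 fold change of the 9 over all mice. Within the 500s, with only 2 vehicle mice, that of Trf was larger. Cp reached 67.9, 66.9, 65.5, 96.4, and 103.4 CPM with vehicle and 548.7, 482.5, 478.0, 473.6, and 508.4 CPM with cisplatin. Kidneys given both drugs ran from 260.6 through a median of 362.6 to 487.1 CPM, and KW6002 kidneys from 61.4 through 81.3 to 100.2. No kidney given cisplatin, with or without KW6002, overlapped the others. The log2 fold change was 2.64 (SE 0.15, adjusted p = 7.23e-13), or 6.23-fold, for cisplatin against vehicle, and 2.21 (SE 0.15, adjusted p = 3.18e-11), or 4.62-fold, for cisplatin plus KW6002 against vehicle. Cisplatin plus KW6002 against cisplatin was -0.43 (SE 0.14, adjusted p = 0.0112), and 1 kidney given both drugs, at 487.1 CPM, lay within the cisplatin range. With the fat markers as a covariate this value was -0.72 (adjusted p = 0.00133), but the fat sums of these groups did not overlap. This covariate therefore cannot separate fat from treatment there. The difference between the KW6002 effects, -0.46 (SE 0.20), did not pass (adjusted p = 0.0672), and it passed with the label series (-0.44, adjusted p = 0.0324) or the fat markers (-0.64, adjusted p = 0.00994) as a covariate, with library size only (-0.53, adjusted p = 0.038), and without KW6002 replicate 1, vehicle replicate 4 or 5, or replicate 5 of the cisplatin plus KW6002 group (adjusted p from 0.0219 to 0.0392). Within the 500s the rise with cisplatin was 2.31 (adjusted p = 4.58e-09). Cdc42bpg (r = 0.988, and 0.601 after group means were removed) and Tnfrsf12a (0.987 and 0.618) had the nearest pattern.

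Ireb2, which encodes the iron sensor IRP2 (chr9:54863789-54912530), was slightly lower in both groups given cisplatin. It reached 145.6, 161.4, 164.2, 172.9, and 166.0 CPM with vehicle and 143.6, 147.3, 138.1, 148.2, and 134.8 CPM with cisplatin. Cisplatin plus KW6002 kidneys ran from 133.1 through a median of 138.9 to 155.5 CPM, and KW6002 kidneys from 140.6 through 158.8 to 185.0. The groups overlapped at the lowest vehicle kidney. The log2 fold change was -0.19 (SE 0.07, adjusted p = 0.0212) for cisplatin against vehicle and -0.19 (SE 0.07, adjusted p = 0.0173) for cisplatin plus KW6002 against vehicle. The first call was lost without vehicle replicate 4 (adjusted p = 0.0549) or cisplatin replicate 5 (adjusted p = 0.0501), and the second without vehicle replicate 4 (adjusted p = 0.051). With library size only both calls were lost (0.03, adjusted p = 0.70, and -0.03, adjusted p = 0.691), and the direction of the first turned. Under the label series covariate they became -0.31 (adjusted p = 0.000105) and -0.32 (adjusted p = 9.75e-05). The nearest patterns were those of Serinc1 (r = 0.900, and 0.838 after group means were removed) and Swt1 (0.896 and 0.852).

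KW6002 without cisplatin changed 0 of the 9 genes in edgeR, beside 0.0175% of all genes tested, and its groups overlapped in all 9, beside 1.38% of genes without overlap. At an unadjusted p below 0.05, 1 of the 9 passed, Ftl1 (log2 fold change -0.37, SE 0.16, adjusted p = 0.366), beside 11.3% of all genes, and DESeq2 also called 0. The 9 values ran from -0.74 for Trf to 0.20 for Tfrc. The effect of KW6002 in cisplatin kidneys differed from its effect in their controls for 4 of the 9 genes, beside 42.7% of all genes. Slc11a2 and Ftl1 differed upward, where 22.8% of all genes did, and Fth1 and Heph downward, where 19.9% did. With library size only, 3041 genes differed upward and 4107 downward, against 3902 and 3410 with TMM.

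A wider list of 56 genes of iron handling placed the 9 in context, and 50 of them were tested. Cisplatin raised 18 and lowered 21 of the 50 compared with vehicle, with a median log2 fold change of -0.11. With library size only, 21 were higher and 18 lower, with a median of 0.10, so the majority direction depends on the scaling. KW6002 with cisplatin raised 17 and lowered 14 compared with cisplatin, with a median of 0.07. Both shares lie near the backgrounds of 70.5% and 55.8%. KW6002 alone changed 0 of the 50, with 3 at an unadjusted p below 0.05 and 0 by DESeq2.

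Genes of iron sensing and ferritin turnover, taken as 1 group, were lower with cisplatin in 3 of 5, beside 35.9% of all genes. With KW6002 added, 3 of 5 were higher, beside 28.6%, and 1 of 5 was lower, beside 27.2%. Aco1, which encodes IRP1, the partner sensor of IRP2, fell by 0.90 on the log2 scale (SE 0.08, adjusted p = 5.41e-10), from 509.3 ± 31.2 CPM (SD, n = 5) to 273.9 ± 32.2 (n = 5). With KW6002 added it was higher than with cisplatin by 0.39 (adjusted p = 0.00012). Pcbp1, an iron chaperone of ferritin, fell by 0.45 (adjusted p = 2.55e-06). Ncoa4, the receptor that takes ferritin to the lysosome, showed 0.26 (SE 0.13, adjusted p = 0.0883), and Fbxl5, which marks IRP2 for decay, showed -0.04 (adjusted p = 0.517). Fbxl5 was the gene lower with KW6002 added (-0.23, adjusted p = 0.00136), a call lost with the fat markers as a covariate (-0.16, adjusted p = 0.0873). The fat sums of these groups did not overlap, so this covariate cannot separate fat from treatment there. For cisplatin against vehicle with library size only, Ncoa4 became 0.48 (adjusted p = 0.00196) and Fbxl5 0.17 (adjusted p = 0.0211), and Pcbp1 -0.23 (adjusted p = 0.00327). Ncoa4 also passed without vehicle replicate 5 (0.33, adjusted p = 0.0416) and with the fat markers as a covariate (0.29, adjusted p = 0.0448).

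Of the hepcidin axis, which controls ferroportin protein, 4 of the 6 tested genes were higher with cisplatin, beside 34.6% of all genes, and 0 lower. Hfe rose by 1.40 (SE 0.07, adjusted p = 4.84e-14) and was lower by 0.57 with KW6002 added (adjusted p = 1.53e-07). Bmp6, the growth factor that drives hepcidin in liver, rose by 0.91 (SE 0.09, adjusted p = 7.24e-09). Hepcidin itself, Hamp, had at most 3 counts in any library, and Hamp2 at most 15, so neither was tested.

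Among reductases and other iron transporters, 6 of 10 were higher with cisplatin and 3 lower, beside 34.6% and 35.9% of all genes. In the Steap family, which includes metal reductases, Steap1 and Steap2 rose by 2.56 (SE 0.19, adjusted p = 4.01e-11) and 1.20 (SE 0.11, adjusted p = 1.31e-09). Steap3 fell by 0.99 (SE 0.10, adjusted p = 7.31e-09). Slc39a8, a transporter of divalent metals, fell by 1.59 (SE 0.14, adjusted p = 8.95e-10) and was higher by 0.76 with KW6002 added (adjusted p = 5.35e-05).

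Genes of haem uptake, export, and breakdown were higher with cisplatin in 6 of 11, beside 34.6% of all genes, and lower in 1 of 11, beside 35.9%. The lower gene was Hmox2, which fell by 0.33 (adjusted p = 1.56e-07), and by 0.12 with library size only (adjusted p = 0.0144). Blvrb, a biliverdin reductase, rose by 2.63 (SE 0.15, adjusted p = 3.4e-13), and KW6002 lowered it by 1.77 (adjusted p = 2.88e-10). Lrp1, a receptor that takes up haem bound to hemopexin, rose by 1.80 (SE 0.16, adjusted p = 1.16e-09), and KW6002 lowered it by 1.19 (adjusted p = 6.92e-07). Hmox1, the inducible haem oxygenase that frees iron, rose by 0.78 (SE 0.24, adjusted p = 0.00556), from 89.3 ± 49.1 CPM (SD, n = 5) to 153.7 ± 15.4 (n = 5). Within the 500s the Hmox1 value was 0.20 (adjusted p = 0.455) and with the label series as a covariate 0.47 (adjusted p = 0.0514), so the call was lost in both. The 500s hold only 2 vehicle mice. With KW6002 added to cisplatin, Hmox1 averaged 97.1 ± 13.5 CPM (SD, n = 6). It was lower than with cisplatin with each mouse left out in turn (-0.70 to -0.59, adjusted p from 0.00137 to 0.0382). The other alternatives gave -1.01 to -0.61 (adjusted p at most 0.0193).

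Lcn2, the lipocalin that binds iron-siderophore complexes and a known marker of kidney injury, had the largest change of the list. It rose from 3.90 ± 0.638 CPM (SD, n = 5) with vehicle to 1240 ± 398.1 (n = 5) with cisplatin, 8.31 on the log2 scale (SE 0.33, adjusted p = 1.32e-15), and was 4.28-fold lower with KW6002 added (adjusted p = 6.04e-08). Bdh2, an enzyme described for a mammalian siderophore, fell by 1.81 (adjusted p = 3.07e-13), and the lipocalin receptor gene Slc22a17 fell by 0.51 (adjusted p = 7.91e-06), or by 0.30 with library size only (adjusted p = 0.00204).

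All 4 genes of filtered protein uptake, which bring transferrin and ferritin from the filtrate into the tubule, were lower with cisplatin, beside 35.9% of all genes. With KW6002 added, 3 of 4 were higher, beside 28.6% of all genes. Lrp2 (megalin) fell by 2.66 (SE 0.12, adjusted p = 9.36e-15) and Cubn (cubilin) by 1.36 (SE 0.11, adjusted p = 1.48e-10). Both are also among the 7 proximal tubule markers, which fell together, and the part of that shift was not tested. Iron-sulfur cluster assembly genes were lower with cisplatin in 8 of 11, beside 35.9% of all genes, and higher in 1 of 11, beside 34.6%. The higher gene was Glrx5, which rose by 0.81 (SE 0.11, adjusted p = 9.27e-07). Lyrm4 fell by 1.04 (adjusted p = 4.79e-09), and with KW6002 added 6 of 11 genes of this group were higher and 1 lower, beside 28.6% and 27.2%.

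**Figure D4:**
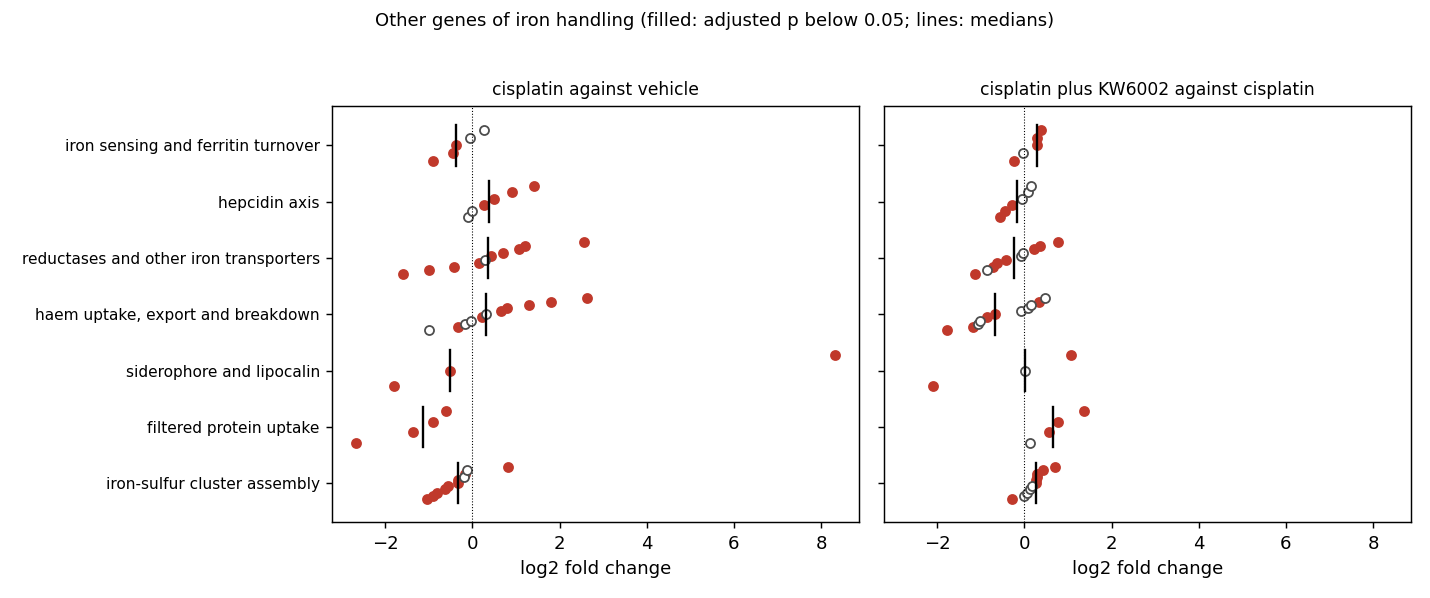
Log2 fold changes (x axis) of the 50 tested genes of the wider list by group (y axis), for cisplatin against vehicle and for cisplatin plus KW6002 against cisplatin. Filled points have an adjusted p below 0.05 and lines are medians. Filtered protein uptake has medians of -1.14 and 0.67, and the far point of the siderophore group is Lcn2 at 8.31.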

How the data were processed

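Counts per gene were analysed for kidneys of 22 mice in 4 groups. The authors prepared stranded mRNA libraries, sequenced them as single reads on an Illumina HiSeq, kept uniquely aligned reads mapped to mm10 with STAR, and counted them per gene with HTSeq 0.6.1p1 in union mode. The deposited values are whole counts without normalization. Use of strand in counting is not given in the sources used here. Another 66 columns without names or values were not used. Symbols, positions, exon lengths, and UTRs were taken from GENCODE M21 (GRCm38), which gave no symbol to 34 genes holding 0.00459% of the counts.

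Counts were tested with edgeR 4.0.16 in R 4.3.3 (TMM, 1 mean per group over all 22 libraries, quasi-likelihood F test, Benjamini-Hochberg adjustment). filterByExpr with the group as design kept 17131 genes with 99.9% of the counts (10 counts in at least 5 libraries, 15 in all). The SE is the absolute log2 fold change divided by the square root of F. CPM uses TMM-scaled library sizes, and correlations use log2 CPM with a prior count of 2. Common dispersion was 0.0168. Alternatives were DESeq2 1.42.0, other scalings, other filters, fewer samples, and covariates.

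The 9 genes, matched by symbol alone, the wider list, and the marker lists were chosen with earlier results of these data known. All 9 genes are named. Of the wider list, each group gives its 2 largest changes in each direction among genes that passed for cisplatin against vehicle whose mean log2 CPM reached 1, plus Aco1, Hamp, Hamp2, Ncoa4, Fbxl5, Lcn2, and Hmox1. For likeness, the 2 genes with the highest r per gene are given. Some genes that these rules name are not reported here. Fold changes are on the edgeR scale. Within groups, the 50 pairs of libraries differed by 3.1 to 54.1 in chi-square per degree of freedom, so none was a copy. Nothing says more than 1 library per mouse, and p values measure the spread between these mice.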

Additional observations from a re-analysis of the deposited data

Results flagged for a closer look

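The effect of KW6002 differed between kidneys with and without cisplatin, by the test of the difference itself, in Slc11a2 (0.64 on the log2 scale, adjusted p = 0.0268 in edgeR), Fth1 (-0.96, adjusted p = 1.31e-05), Ftl1 (0.79, adjusted p = 0.00702), and Heph (-0.64, adjusted p = 4.52e-05). For all genes tested, 42.7% passed the same test.

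Cisplatin replicate 4 had 92.5 CPM of Tfrc and lay far from the other 4 cisplatin kidneys relative to the range of the group, which was 87.5 to 92.5 CPM. It was the 1 such sample in the 36 gene and group combinations examined, where chance gives about 1.8.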

How the results depend on the processing

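The counts of the 9 genes past the threshold were 6 for cisplatin against vehicle under all 10 alternatives other than leaving out a mouse (with library size only, Heph joined and Ireb2 left, for 5 higher and 1 lower), 5 to 6 for cisplatin plus KW6002 against cisplatin, 4 to 6 for cisplatin plus KW6002 against vehicle, 4 to 5 for the difference of KW6002 effects, and 0 for KW6002 against vehicle. Leaving out each mouse gave 5 to 6, 5 to 6, 4 to 5, 3 to 5, and 0. Counts of the wider list stayed within 1.5 times throughout, except that KW6002 against vehicle gave 0 to 1 when each mouse was left out, with Bmp6 called without vehicle replicate 3 (-0.41, adjusted p = 0.027). Over all genes, KW6002 against vehicle called 3 in edgeR, 99 in DESeq2, 1 with the replicate block, and 0 with the 2 groups fitted alone. Of 21 single values of the 9 genes past the threshold, 1 changed sign in any alternative, Ireb2 for cisplatin against vehicle (0.031 with library size only). The other sign changes were of values that had not passed, and the cause was not tested.

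With library size only, signs changed for Tfrc (-0.059) for cisplatin plus KW6002 against cisplatin, Ireb2 (0.0046) for KW6002 against vehicle, Trf (0.14) for cisplatin plus KW6002 against vehicle, Slc40a1 (-0.044) and Ireb2 (-0.068) for the difference of KW6002 effects, and Fbxl5 (0.17) for cisplatin against vehicle. For Tfrc, cisplatin plus KW6002 against cisplatin, DESeq2 gave -0.0094, relative log expression factors -0.0097, and a filter of 10 counts in every library -0.014. For the Ireb2 difference of effects these gave -0.011, -0.012, and -0.011. Without a filter, Ireb2 was 0.0049 for cisplatin plus KW6002 against cisplatin and Trf 0.00041 for cisplatin plus KW6002 against vehicle. With the label series as a covariate, Heph was -0.058 for cisplatin against vehicle, Slc11a2 0.21 and Trf 0.62 for cisplatin plus KW6002 against vehicle, and Slc40a1 -0.00081 for the difference. Within the 500s, Heph was -0.023 for cisplatin against vehicle, Slc11a2 0.13 and Trf 1.28 for cisplatin plus KW6002 against vehicle, and Slc40a1 -0.26 and Ireb2 -0.066 for the difference. There, KW6002 against vehicle gave Slc40a1 0.16, Fth1 -0.16, Trf 0.50, Cp -0.19, and Ireb2 0.065. With fat markers as a covariate, Slc40a1 was 0.054 for cisplatin plus KW6002 against cisplatin, Cp -0.080 for KW6002 against vehicle, Trf 1.04 for cisplatin plus KW6002 against vehicle, and Ireb2 -0.0082 for the difference.

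The mice share only a replicate number in the labels: over 30 pairs of equal number the correlation of deviations ran from -0.175 to 0.405, with 7 above 0.1. With the replicate block, counts of the 9 genes were 6 for cisplatin against vehicle, 0 for KW6002 against vehicle, and 5 for each other comparison. Under the block, Ftl1 for cisplatin plus KW6002 against cisplatin was 0.36 (adjusted p = 0.0608), the Cp difference of effects -0.50 (adjusted p = 0.0347), and Trf for cisplatin plus KW6002 against vehicle 0.24.

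Leaving out each mouse turned the sign of these values, none past the threshold, over the ranges given. For KW6002 against vehicle the ranges were -0.042 to 0.14 for Cp, -0.010 to 0.096 for Fth1, -0.051 to 0.028 for Ireb2, and -0.016 to 0.18 for Slc11a2. For cisplatin against vehicle they were -0.0088 to 0.063 for Heph and -0.086 to 0.0067 for Fbxl5. For cisplatin plus KW6002 against cisplatin they were -0.082 to 0.052 for Tfrc and -0.032 to 0.0098 for Ireb2. For cisplatin plus KW6002 against vehicle they were -0.035 to 0.11 for Tfrc and -0.26 to 0.47 for Trf, and for the difference of effects -0.033 to 0.047 for Ireb2 and -0.082 to 0.091 for Slc40a1. Single values of the wider list were examined after the data were seen, and sign changes among 1312 of them were 2, both of Fbxl5. Depth limits Trf, with as few as 44 counts in a library, and Hamp, with at most 3.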
